A study of Rattus norvegicus with 9 samples.

Results

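The cytosolic and mitochondrial heat shock chaperones were followed in RNA of RBL-2H3 cells (RBLs), which come from a rat basophilic leukemia and stand in for mast cells (MCs). They are 10 genes chosen by name: Hsp90aa1, Hsp90ab1, Hspa1a, Hspa1b, Hspa8, Hsph1, Dnajb1, Hspb1, Hspd1 and Hspe1. Of these, 9 were found by their symbol, and Hspa1b was found by its gene ID because its row carries a provisional name. They stand among 18006 genes that have a value. The 9 samples fall into 3 groups of 3. In the DNP group the cells received anti-DNP IgE at 50 ng/mL over 12 h of sensitization. They were then given 4 h of DNP-HSA at 100 ng/mL, a multivalent antigen that cross-links the IgE on the cell surface. The PF samples had the same sensitization and antigen and were pretreated for 1 h with PF, an agent that neither the labels nor the study's text identify. One label field puts the antigen exposure of all PF samples at 4 h, and another puts it at 4, 5 and 6 h for replicates 1, 2 and 3. The Ctrl samples are called untreated in one field and carry the sensitization in another, so their exposure to IgE is not settled. All samples are of 1 leukemia line, and separate cultures are not stated, so that p-values measure the spread between these samples, which may be technical.

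Each gene had 1 normalized value per sample, read here as FPKM, a count of fragments divided by the length of the gene and by the mapped total. The values of a sample summed to between 580702 and 591539 FPKM in Ctrl, between 573023 and 582577 FPKM in DNP and between 610206 and 630069 FPKM in PF samples. The number of reads behind them is unknown. Of 9 mast cell markers chosen, the 7 that have a value were at 1 FPKM or more in every sample. Their summed level ranged from 2349 to 2385 FPKM in Ctrl, from 2188 to 2214 FPKM in DNP and from 2399 to 2443 FPKM in PF samples. In limma 5, 4 and 6 of the 7 passed an adjusted p of 0.05 in DNP vs Ctrl, PF vs DNP and PF vs Ctrl. Of all genes tested, 29.2%, 48.8% and 57.7% passed. The sum hides opposite moves, since Mcpt2 (log2 fold change -0.64), Kit, Cpa3 and Fcer1g were lower in DNP vs Ctrl and Hdc (0.15) was higher. Of 6 markers of other cell types, 4 were below 1 FPKM in every sample, and Cd3e and Pecam1 were above it. The 6 summed to between 65.8 and 70.6 FPKM in Ctrl, between 63.6 and 68.7 FPKM in DNP and between 52.4 and 58.2 FPKM in PF samples, where Pecam1 was lower than in DNP (log2 fold change -0.33, adjusted p = 0.000801 in limma) and than in Ctrl samples (-0.40, adjusted p = 0.000155). The part of these shifts in the results below was not tested. In a bulk sample, fewer cells of a kind and less RNA per cell cannot be told apart.

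Heat shock proteins are molecular chaperones that hold, fold and refold other proteins, and many of these chaperones use ATP. In the cytosol, HSP70 proteins bind short unfolded stretches, J-domain proteins such as DNAJB1 deliver the client and trigger ATP hydrolysis, HSP110 proteins such as HSPH1 exchange the nucleotide, and HSP90 takes over late folding steps of kinases and receptors. In the mitochondrial matrix, HSP60 (Hspd1) and its lid HSP10 (Hspe1) form a closed folding chamber. Some members, such as Hspa8 and Hsp90ab1, are made at high levels in unstressed cells, while Hspa1a, Hspa1b and Hspb1 are classic stress-inducible genes driven by heat shock factor 1 (HSF1), which binds heat shock elements made of inverted repeats of a short unit. In MCs, cross-linking of FcεRI starts a burst of secretion and new protein synthesis.

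Promoters were read for the 8 members that have an entry in RefSeq's promoter table on GRCr8, a later rat build than the rn6 build of the expression values, in windows running from 250 bases before to 50 bases after the annotated start. Both strands were searched for a heat shock element of 3 units (TTCNNGAANNTTC or GAANNTTCNNGAA), for one of 2 units (TTCNNGAA or GAANNTTC, which every match of 3 units also contains), for the AP-1 element TGANTCA and for the cyclic AMP response element TGACGTCA. The upstream parts of 5 members are shown because they carry the contrast between members with and without heat shock elements. Capitals mark the matches. They lie at chr8:50080264-50080513 on the plus strand, at chr12:10427118-10427367 on the plus strand, at chr19:41431142-41431391 on the minus strand, at chr9:64084077-64084326 on the plus strand and at chr9:22930173-22930422 on the plus strand, in the order below.
Hspa8: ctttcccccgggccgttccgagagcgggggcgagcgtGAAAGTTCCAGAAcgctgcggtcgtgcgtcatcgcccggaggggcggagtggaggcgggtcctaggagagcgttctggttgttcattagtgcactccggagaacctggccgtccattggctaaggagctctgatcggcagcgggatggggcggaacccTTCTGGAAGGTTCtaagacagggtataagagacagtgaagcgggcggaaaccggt
Hsph1: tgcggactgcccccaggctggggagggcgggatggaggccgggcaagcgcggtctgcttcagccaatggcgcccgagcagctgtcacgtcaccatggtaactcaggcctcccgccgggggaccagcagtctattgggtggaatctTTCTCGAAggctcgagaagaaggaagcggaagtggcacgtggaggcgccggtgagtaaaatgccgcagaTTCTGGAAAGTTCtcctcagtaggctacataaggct
Dnajb1: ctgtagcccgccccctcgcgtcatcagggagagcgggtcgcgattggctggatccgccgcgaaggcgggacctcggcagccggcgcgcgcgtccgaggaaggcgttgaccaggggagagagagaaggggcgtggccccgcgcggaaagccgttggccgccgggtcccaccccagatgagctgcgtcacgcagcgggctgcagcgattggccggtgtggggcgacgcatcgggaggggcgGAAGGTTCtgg
Hspe1: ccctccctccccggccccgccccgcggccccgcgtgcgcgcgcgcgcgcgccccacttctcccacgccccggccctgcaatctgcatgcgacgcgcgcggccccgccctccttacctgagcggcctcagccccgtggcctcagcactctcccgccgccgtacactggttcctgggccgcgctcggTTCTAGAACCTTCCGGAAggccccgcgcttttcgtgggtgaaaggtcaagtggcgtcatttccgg
Hsp90ab1: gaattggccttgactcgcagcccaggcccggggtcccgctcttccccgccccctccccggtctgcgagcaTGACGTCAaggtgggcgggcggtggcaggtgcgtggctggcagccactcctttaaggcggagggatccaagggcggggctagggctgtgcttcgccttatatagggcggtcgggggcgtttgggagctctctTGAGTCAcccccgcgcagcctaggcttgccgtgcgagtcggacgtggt

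An element of 3 units was found in 4 of the 8 members' windows and in 202 of all 27457 windows (0.736%). Hspa8 holds 2 of them, Hsph1 holds 1, and the divergent neighbours Hspd1 and Hspe1 share theirs, since their windows overlap by 211 bases on opposite strands. Counted from the annotated start as 0, those of Hspa8 begin at -213 and -55, that of Hsph1 at -36 and those of Hspe1, which overlap, at -65 and -60. The same letters begin at -242 and -237 from the start of Hspd1. Dnajb1 and Hspb1 have matches of 2 units only, so that 6 of 8 members hold a match of 2 units, against 15.4% of all windows. The window of Hsp90ab1 has neither, and it is the only member window with an AP-1 match (7.33% of all windows) or a cyclic AMP match (1.91% of all windows). None of these letters is in the window of Hspa1a. Only exact matches in the window at its annotated start were sought, so an element elsewhere or with other letters would be missed. Hspa1b and Hsp90aa1 have no entry, and their promoters were not read. A match is a description of letters in a window, and factor binding was not measured.

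**Figure D1:**
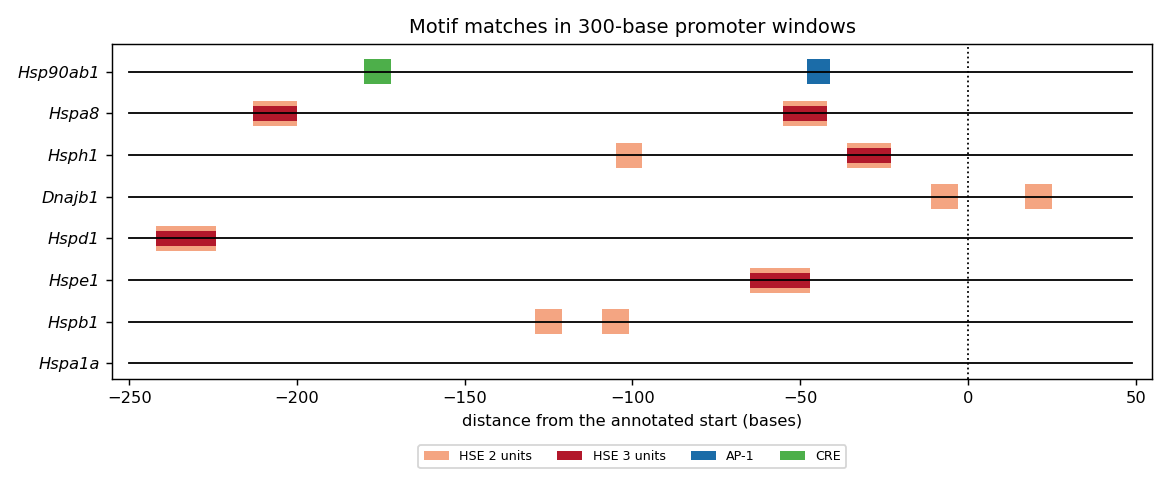
Map of motif matches in the promoter windows of 8 members, with the distance from the annotated start in bases on the horizontal axis and 1 line per gene. Dark red boxes mark heat shock elements of 3 units, which begin at -213 and -55 in Hspa8, and pale boxes mark elements of 2 units. The blue and green boxes of Hsp90ab1 mark the AP-1 and cyclic AMP matches.

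Among the members, 7 were read at 8.04 FPKM or more in every sample and 3 were at or near 0. The order of the 7 mean levels was the same in Ctrl, DNP and PF samples: Hsp90ab1 was highest, followed by Hspa8, Hsp90aa1, Hspe1, Hspd1, Hsph1 and Dnajb1. No neighbours in this order overlapped in any group. Hsp90ab1 was the gene with the rank of 45 by mean FPKM among all genes, Hspa8 had rank 81 and Dnajb1 rank 5981. The 10 members made up between 0.7% and 0.744% of the summed FPKM of a sample.

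Hspa1a, Hspa1b and Hspb1 were almost unread, with and without antigen. Hspa1a, an HSP70 made on heat shock, was listed at 0 in every sample but DNP replicate 2, where it was 0.03 FPKM. Hspa1b, its nearly identical neighbour, was 0, 0 and 0.09 FPKM in Ctrl replicates 1, 2 and 3, 0, 0 and 0.12 FPKM in DNP and 0.05, 0 and 0.03 FPKM in PF samples. The 3 groups overlap fully, and since reads of this pair can be assigned to either gene, the sum of both is the safer measure. It was at most 0.12 FPKM in any sample. Hspb1, a small heat shock protein that holds unfolded clients without ATP, was 0, 0 and 0.08 FPKM in Ctrl, 0, 0.08 and 0 FPKM in DNP and 0.15, 0.15 and 0 FPKM in PF samples. These 3 genes and the sum of the pair did not reach the minimum for a test, and with no filter on low values none was called where a test could be run. For Hspa1a in PF vs Ctrl, where all 6 values are 0, none could be.

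**Figure D2:**
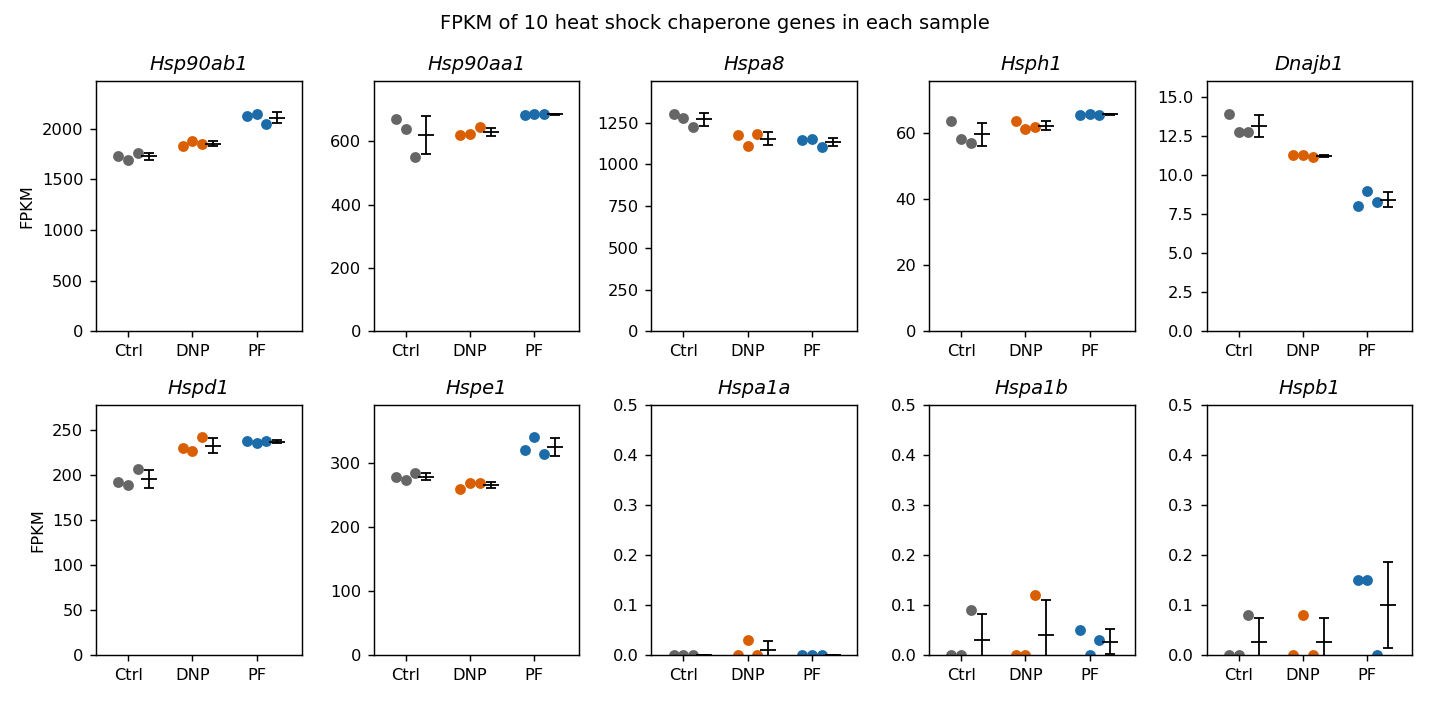
FPKM of the 10 members in each sample (dots, replicates 1 to 3 from left to right) with the mean and SD (bars, n = 3), each panel on its own axis starting at 0. Dnajb1 falls from between 12.76 and 13.96 FPKM in Ctrl to between 8.04 and 8.97 FPKM in PF samples, and Hspa1a, Hspa1b and Hspb1 stay at or below 0.15 FPKM.

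The first comparison, of DNP with Ctrl samples, asks how transcripts change in MCs activated through IgE. Of the 7 members tested with limma on log2(FPKM + 1), 3 passed an adjusted p of 0.05 in DNP vs Ctrl, 1 higher and 2 lower, where 29.2% of 10392 genes tested passed (14.7% higher and 14.4% lower). In 5 of the 7 members the DNP and Ctrl samples did not overlap, against 45.8% of all genes tested. In PF vs DNP, which asks what the agent changes in activated cells, 4 of the 7 passed, 3 higher and 1 lower, against 48.8% of 10329 genes (18.1% higher and 30.7% lower), and 5 of 7 did not overlap, against 57.6%. In PF vs Ctrl, 6 of the 7 passed, 4 higher and 2 lower, against 57.7% of 10361 genes (23.1% higher and 34.6% lower), and none of the 7 overlapped, against 64.8% of genes without overlap. With 7 genes, these shares were read as close to the background, and the members' changes were small. The median absolute log2 fold change of the members was 0.102, 0.122 and 0.221 in the 3 comparisons, beside 0.121, 0.164 and 0.219 over all genes tested. PF vs DNP and PF vs Ctrl share the PF samples, and DNP vs Ctrl shares samples with both, so the 3 counts are not independent.

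**Figure D3:**
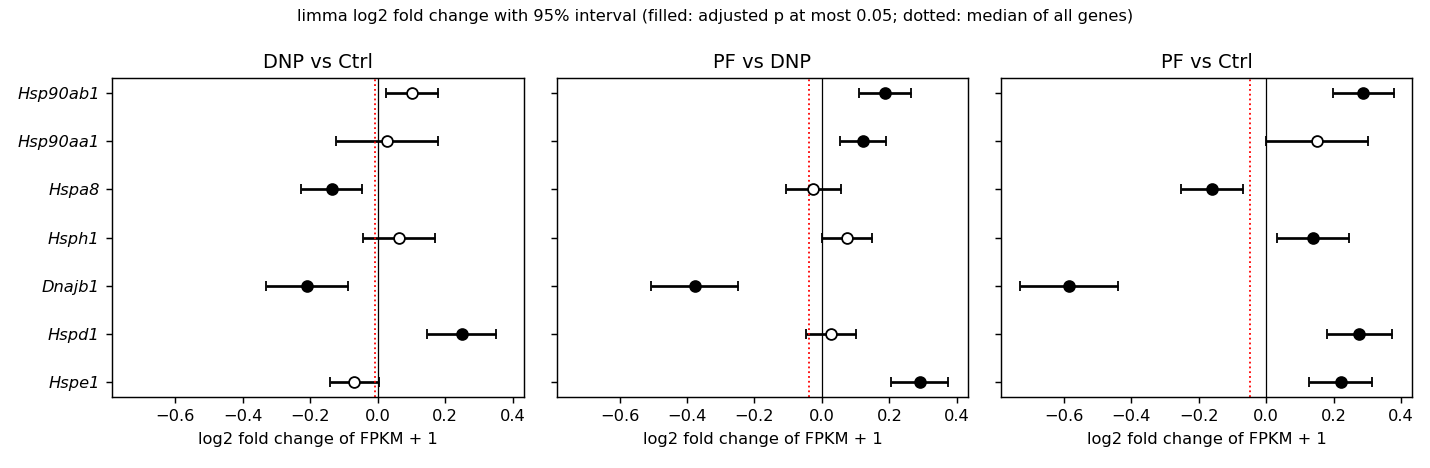
Log2 fold change of FPKM + 1 for the 7 members tested, with the 95% interval from limma, in the 3 comparisons. Filled dots passed the threshold of 0.05 on the adjusted p, and the dotted line marks the median over all genes tested, which was -0.01, -0.04 and -0.05. Dnajb1 has the lowest value in each panel, at -0.21, -0.38 and -0.59.

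HSP90 is made from a pair of cytosolic genes, the constitutive Hsp90ab1 and the more inducible Hsp90aa1. Hsp90ab1 was 1729, 1691 and 1756 FPKM in Ctrl replicates 1, 2 and 3, 1830, 1880 and 1845 FPKM in DNP and 2127, 2147 and 2049 FPKM in PF samples. Every DNP sample lay above every Ctrl sample, and every PF sample above every DNP sample. The means were 1725 ± 32.9, 1852 ± 26.0 and 2108 ± 51.4 FPKM (SD, n = 3). The rise of Hsp90ab1 in PF samples passed the test against DNP (log2 fold change 0.19 ± 0.0339, SE, adjusted p = 0.00188 in limma) and against Ctrl (0.29 ± 0.0393, adjusted p = 0.000337), which is 1.22-fold. Scaling to the mean sum brought the value against DNP to 0.09 (adjusted p = 0.0285). Against Ctrl, the DNP samples missed the threshold, with a log2 fold change of 0.10, a 95% interval of 0.02 to 0.18 and an adjusted p of 0.0546 in limma. That value passed with a pseudocount of 0.1, after scaling all samples to their mean sum or with all 3 groups in 1 fit.

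Hsp90aa1 was 670.5, 638.7 and 551.9 FPKM in Ctrl, 620.5, 624.7 and 645.1 FPKM in DNP and 683.3, 686.5 and 687.8 FPKM in PF samples. Ctrl replicate 3 was the lowest sample and spread the Ctrl values over those of the DNP samples, while the 3 PF samples lay close together above all others. In PF vs DNP the log2 fold change of Hsp90aa1 was 0.12 ± 0.0297 (SE), with an adjusted p of 0.00851 in limma. This call was lost after scaling all samples to their mean sum, where the log2 fold change was 0.02 (adjusted p = 0.524 in limma), and in 2 other alternatives. In PF vs Ctrl the value was 0.15 with a 95% interval of -0.0013 to 0.30 and was not called, although the samples did not overlap, and with single samples left out it ran from 0.07 without Ctrl replicate 3 to 0.21 without Ctrl replicate 1, where it passed. It was 0.07 after scaling to the mean sum and not called. In DNP vs Ctrl it was 0.03 with an interval of -0.12 to 0.18, and without Ctrl replicate 3 it turned to -0.05. The ratio of Hsp90ab1 to Hsp90aa1 was 2.80 ± 0.33, 2.94 ± 0.0754 and 3.07 ± 0.0817 in Ctrl, DNP and PF samples (SD, n = 3), with overlap between the groups in each comparison.

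Hspa8, the constitutive HSP70 that also strips clathrin from vesicles, was the most abundant HSP70 of the members. It was 1304, 1279 and 1226 FPKM in Ctrl, 1173, 1112 and 1179 FPKM in DNP and 1147, 1151 and 1105 FPKM in PF samples. Each Ctrl sample lay above all 6 stimulated samples, which overlapped with each other. Hspa8 was lower in DNP than in Ctrl samples, with a log2 fold change of -0.14 ± 0.0397 (SE, adjusted p = 0.0329 in limma), and lower in PF than in Ctrl samples, at -0.16 ± 0.0402 (adjusted p = 0.00815). The call against Ctrl in PF samples was lost by median ratios, at -0.09, and with PF replicate 1 only. The call in DNP vs Ctrl rested on the choice of samples and settings, since 9 of 14 alternatives, among them the threshold of 0.01, did not keep it. Over all 14 the adjusted p in limma ran from 0.0203 to 0.111. Leaving out DNP replicate 2 ended the call and brought the log2 fold change of Hspa8 to -0.11. Leaving out any of 4 other samples, Ctrl replicates 1 and 2 and DNP replicates 1 and 3, also ended the call. Between PF and DNP samples the difference was -0.03 with a 95% interval of -0.11 to 0.06, and it changed sign with the scaling.

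Hsph1, an HSP110 that exchanges nucleotide on HSP70 and takes part in pulling aggregates apart, was 63.5, 58.0 and 56.9 FPKM in Ctrl, 63.7, 61.1 and 61.7 FPKM in DNP and 65.3, 65.8 and 65.5 FPKM in PF samples. The PF samples were highest and nearly equal, and Ctrl replicate 1 reached into the range of the DNP samples. Hsph1 was higher in PF than in Ctrl samples by 0.14 ± 0.0471 on the log2 scale (SE, adjusted p = 0.0327 in limma), a call that 10 of 15 alternatives did not keep. The log2 fold change was 0.08 in PF vs DNP (95% interval 0.0016 to 0.15, adjusted p = 0.0842 in limma) and 0.06 in DNP vs Ctrl (-0.04 to 0.17, adjusted p = 0.337). Leaving out Ctrl replicate 3, Ctrl replicate 2 or any single PF sample ended the call against Ctrl, with log2 fold changes of 0.11 to 0.14, and so did scaling to the mean sum, at 0.06 (adjusted p = 0.347). In DNP vs Ctrl the value ran from 0.03 without Ctrl replicate 3 to 0.11 without Ctrl replicate 1.

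Dnajb1, the J-domain partner that drives HSP70 in refolding and also holds HSF1 in check in feedback, fell in every comparison and by more than any other member. It was 14.0, 12.8 and 12.8 FPKM in Ctrl, 11.3, 11.3 and 11.2 FPKM in DNP and 8.04, 8.97 and 8.31 FPKM in PF samples. The 3 groups formed 3 separate steps. Its log2 fold change was -0.21 ± 0.0531 in DNP vs Ctrl (SE, adjusted p = 0.0199 in limma), -0.38 ± 0.0572 in PF vs DNP (adjusted p = 0.000701) and -0.59 ± 0.0636 in PF vs Ctrl (adjusted p = 9.61e-05). On the untransformed FPKM, the PF mean was 0.641 of the Ctrl mean. Both PF comparisons kept their direction and call in 15 of 15 alternatives. In DNP vs Ctrl the direction held in 14 of 14 and the call in 9 of 14, and it was lost without Ctrl replicate 1, where the log2 fold change was -0.17, and without any single DNP sample.

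The ratio of Hspa8 to Dnajb1, which was not planned in advance, was 93.4, 100.3 and 95.9 in Ctrl, 104, 98.3 and 105.7 in DNP and 142.6, 128.4 and 132.9 in PF samples. The PF samples lay above all others, and the DNP and Ctrl samples overlapped. The two-sided exact permutation p was 0.1 for PF samples against DNP and against Ctrl samples, the smallest that 3 samples against 3 allow, and 0.2 for DNP vs Ctrl. Hspa8 overlapped between PF and DNP samples, so this ratio mainly restates the steps of Dnajb1 and adds no separate support.

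Of the mitochondrial pair, Hspd1 was higher in both stimulated groups than in Ctrl, and Hspe1 was higher in PF samples than in both others. Hspd1, the HSP60 ring, was 191.4, 188.1 and 206.8 FPKM in Ctrl, 229.6, 226 and 241.4 FPKM in DNP and 237.8, 235 and 237.2 FPKM in PF samples. All 6 stimulated samples lay above all Ctrl samples, and the DNP and PF samples overlapped. Hspd1 rose by 0.25 ± 0.0444 on the log2 scale in DNP vs Ctrl (SE, adjusted p = 0.00463 in limma) and by 0.28 ± 0.0424 in PF vs Ctrl (adjusted p = 0.000667), about 1.19-fold and 1.21-fold. Both calls held in all alternatives tried, 14 and 15 in number. In PF vs DNP the difference was 0.03 with a 95% interval of -0.05 to 0.10.

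Hspe1, the HSP10 lid, was 277.9, 273 and 285.1 FPKM in Ctrl, 259.6, 268.4 and 268.9 FPKM in DNP and 321, 340 and 314.1 FPKM in PF samples. The DNP samples were the lowest and the PF samples the highest, with no overlap. Its log2 fold change was 0.29 ± 0.0369 in PF vs DNP (SE, adjusted p = 0.000267 in limma) and 0.22 ± 0.0407 in PF vs Ctrl (adjusted p = 0.00181), and both calls held in 15 of 15 alternatives, with values down to 0.19 and 0.14 after scaling to the mean sum. In DNP vs Ctrl it was -0.07 with an interval of -0.14 to 0.0043 and was not called. The ratio of Hspe1 to Hspd1, singled out after the values were seen, was 1.45, 1.45 and 1.38 in Ctrl, 1.13, 1.19 and 1.11 in DNP and 1.35, 1.45 and 1.32 in PF samples. The DNP samples lay below both other groups, which overlapped. The exact permutation p of this ratio was 0.1 for DNP against either group and 0.2 for PF vs Ctrl. The pair shares a divergent promoter region and the element printed for Hspe1. Over the 9 samples the correlation of log2(FPKM + 1) between Hspd1 and Hspe1 was 0.37, a description over samples that share their groups.

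**Figure D4:**
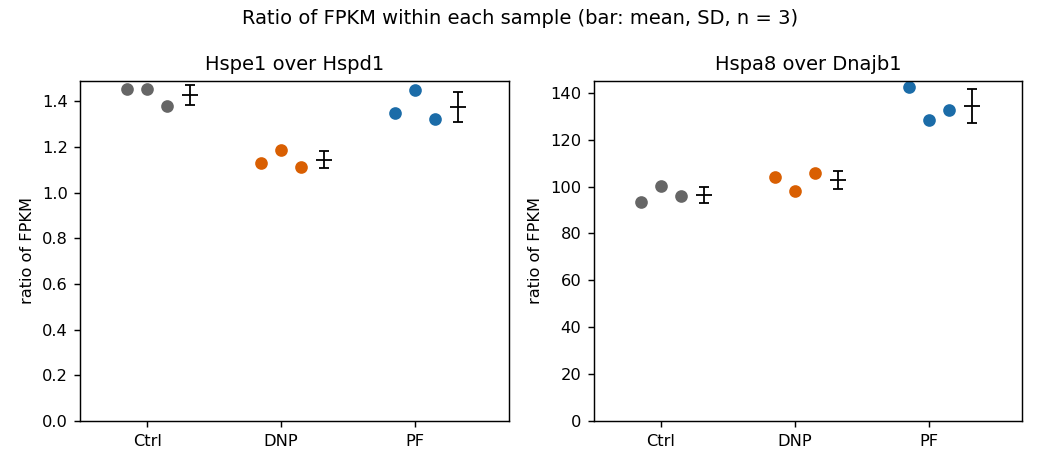
Ratio of FPKM within each sample (dots) with the mean and SD (bars, n = 3), on axes starting at 0, for Hspe1 over Hspd1 (left) and Hspa8 over Dnajb1 (right). The left ratio is lowest in the DNP samples, between 1.11 and 1.19, and the right ratio is highest in the PF samples, between 128.4 and 142.6.

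Other genes of the chaperone system were counted in fixed lists, read beside the 29.2%, 48.8% and 57.7% of all genes called in DNP vs Ctrl, PF vs DNP and PF vs Ctrl. A list's share near or below these is not a result about the list. Of 20 HSP90 co-chaperones tested, 7 were higher and 0 lower in DNP vs Ctrl, with a median log2 fold change of 0.09 beside -0.01 over all genes. The list's shares called were 35%, 40% and 65% in the 3 comparisons, so that the share in PF vs DNP lies below that of all genes. The calls in DNP vs Ctrl were led by Rpap3 (0.74, adjusted p = 0.00269 in limma), which links HSP90 to the R2TP complex, Aarsd1 (0.34, adjusted p = 0.00163) and Nudc (0.28, adjusted p = 0.000974). In PF vs DNP 8 were higher and 0 lower, but after scaling to the mean sum 1 was higher and 2 were lower. In PF vs Ctrl 13 were higher and 0 lower (10 and 2 with that scaling), among them Rpap3 (0.86, adjusted p = 0.000134) and Fkbp4, an immunophilin of steroid receptors (0.46, adjusted p = 0.000151). Stip1, which bridges HSP70 and HSP90, was 158.1, 162.3 and 162.6 FPKM in Ctrl, 172, 165.8 and 173.1 FPKM in DNP and 188.1, 189.6 and 183.2 FPKM in PF samples, and rose in PF vs DNP (0.13, adjusted p = 0.00731) and in PF vs Ctrl (0.21, adjusted p = 0.000777). Its log2 fold change in DNP vs Ctrl was 0.08 (adjusted p = 0.0906).

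Among the HSP70 relatives and exchange factors, 3 of 13 were higher and 2 lower in DNP vs Ctrl, 6 of 12 higher and 3 lower in PF vs DNP and 6 of 13 higher and 3 lower in PF vs Ctrl. These are 38.5%, 75% and 69.2% of the list, against 29.2%, 48.8% and 57.7% of all genes. Scaled to the mean sum, the last of these became 2 higher and 4 lower. The 5 calls in DNP vs Ctrl became 3 without Ctrl replicate 2 or 3 and 2 without DNP replicate 1, and the 9 in PF vs Ctrl became 5 without Ctrl replicate 1. Hspa4l, an HSP110 relative of Hsph1, was 8.37, 6.98 and 7.31 FPKM in Ctrl, 11, 11.3 and 10.6 FPKM in DNP and 6.34, 6.49 and 7.15 FPKM in PF samples. The DNP samples of Hspa4l lay above all others, with a log2 fold change of 0.49 in DNP vs Ctrl (adjusted p = 0.00187 in limma) and -0.65 in PF vs DNP (adjusted p = 5.06e-05). With the values as deposited, the exchange factor Bag3, active in selective autophagy, was higher in all 3 comparisons (0.25, 0.11 and 0.36, adjusted p = 0.0163, 0.0413 and 0.00123). Bag5 was lower in all 3, at -0.20, -0.48 and -0.68 (adjusted p = 0.0181, 0.00105 and 0.000182). The 0.11 of Bag3 in PF vs DNP is about as small as the 0.12 of Hsp90aa1, which scaling to the mean sum brought to 0.02. Genes of this list were not read singly under that scaling. Bag1 was lower in DNP vs Ctrl (-0.16, adjusted p = 0.0116) and higher in PF vs DNP (0.22, adjusted p = 0.000529). Stub1, the ubiquitin ligase that tags chaperone clients, rose in PF vs DNP (0.39, adjusted p = 0.000201). Hspa2, counted as lower in PF vs Ctrl, reached the minimum for a test only through the Ctrl samples, at 1.42, 1.22 and 1.57 FPKM, and was 0.49, 0.43 and 0.35 FPKM in PF samples. It did not reach the minimum in PF vs DNP. Hspa4, the other common HSP110, was higher in PF vs Ctrl (0.19, adjusted p = 0.0052), with values of 0.10 and 0.09 in DNP vs Ctrl and PF vs DNP (adjusted p = 0.0788 and 0.0591).

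J-domain co-chaperones split in each comparison, with 4 of 20 higher and 4 lower in DNP vs Ctrl, 3 of 21 higher and 7 lower in PF vs DNP and 7 of 21 higher and 4 lower in PF vs Ctrl. The shares called, 40%, 47.6% and 52.4%, stand beside 29.2%, 48.8% and 57.7% of all genes, so that both PF shares lie at or below that of all genes. Of the 7 higher in PF vs Ctrl, Dnajc18, named after its values were seen, reached the minimum for a test only through the PF samples. The last 2 splits turned with the scaling, to 6 higher and 4 lower by median ratios in PF vs DNP and to 5 higher and 6 lower by the mean sum in PF vs Ctrl. The 8 calls in DNP vs Ctrl became 5 without DNP replicate 1 or 3 and 4 without DNP replicate 2. Dnajb5, of the same subfamily as Dnajb1, was 12.5, 15.2 and 15.5 FPKM in Ctrl, 11.9, 11.4 and 11.7 FPKM in DNP and 4.98, 4.65 and 4.93 FPKM in PF samples, the same order of groups as Dnajb1. Its log2 fold change was -0.28, -1.11 and -1.39 in DNP vs Ctrl, PF vs DNP and PF vs Ctrl (adjusted p = 0.0291, 1.44e-06 and 4.65e-06 in limma). Dnajb12, a membrane-bound J-protein of the endoplasmic reticulum, was also lower in all 3 (-0.24, -0.35 and -0.59, adjusted p = 0.00612, 0.000237 and 2.49e-05). Dnaja4 was higher in DNP vs Ctrl (0.60, adjusted p = 0.000606) and lower in PF vs DNP (-0.17, adjusted p = 0.0442). Dnaja1, the major type I partner of HSP70, was lower in PF vs DNP (-0.14, adjusted p = 0.00982) and not called against Ctrl, at 0.08 for DNP and -0.06 for PF samples.

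Mitochondrial chaperones and proteases other than the pair were higher in 3 and lower in 0 of 15 in DNP vs Ctrl, higher in 5 and lower in 3 in PF vs DNP and higher in 8 and lower in 3 in PF vs Ctrl. The list's 20% called in DNP vs Ctrl is below the 29.2% of all genes, and its 53.3% and 73.3% in the PF comparisons stand beside 48.8% and 57.7%. The PF vs DNP split became 1 higher and 5 lower after scaling to the mean sum, and its 8 calls became 4 without DNP replicate 2 and 5 without DNP replicate 3 or PF replicate 2. Clpb, a disaggregase, was 19.7, 19.7 and 21.9 FPKM in Ctrl, 28.0, 28.4 and 28.1 FPKM in DNP and 35.6, 32 and 31.2 FPKM in PF samples, rising in 3 separate steps (log2 fold change 0.45, 0.22 and 0.67, adjusted p = 0.000596, 0.00835 and 5.23e-05 in limma). Trap1, the mitochondrial HSP90, rose in all 3 comparisons (0.21, 0.14 and 0.35 in DNP vs Ctrl, PF vs DNP and PF vs Ctrl, adjusted p = 0.00413, 0.01 and 9.75e-05). After scaling to the mean sum, only 1 gene of the list was called higher in PF vs DNP. Clpb and Trap1 therefore did not both keep that call. Hspa9, the mitochondrial HSP70 that works ahead of Hspd1, was not called in any comparison, at 0.08, -0.03 and 0.05. Its exchange factor Grpel1 was lower in PF than in DNP samples (-0.30, adjusted p = 0.0135) and lower than in Ctrl samples (-0.38, adjusted p = 0.00114).

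TRiC, the cytosolic chamber for actin and tubulin, and its helper prefoldin had 7 of 14 genes higher and 0 lower in DNP vs Ctrl, with a median log2 fold change of 0.15, 10 higher and 0 lower in PF vs DNP and 13 higher and 0 lower in PF vs Ctrl, with a median of 0.25. Over all genes 14.7%, 18.1% and 23.1% were called higher in these comparisons, and the shares of this list called were 50%, 71.4% and 92.9%. Under the scaling to the mean sum, PF vs DNP had 3 higher and 1 lower and PF vs Ctrl had 9 higher and 0 lower. Without DNP replicate 2, PF vs DNP had 6 higher and 0 lower. Cct7, a TRiC subunit, was 133, 142.9 and 140.1 FPKM in Ctrl, 167.8, 167.1 and 173.5 FPKM in DNP and 188.8, 187.5 and 184.8 FPKM in PF samples. The 3 groups did not overlap, with log2 fold changes of 0.29 in DNP vs Ctrl (adjusted p = 0.00104 in limma) and 0.43 in PF vs Ctrl (adjusted p = 3.2e-05). Pfdn5, a prefoldin subunit, rose in PF vs DNP (0.36, adjusted p = 0.000689).

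The transcription factor Hsf1 was 30.2, 31.4 and 31.7 FPKM in Ctrl, 32.3, 30.3 and 31.7 FPKM in DNP and 32.6, 30.7 and 27.1 FPKM in PF samples, with overlap throughout and no call. Hsf2 was higher in PF than in DNP samples (0.17, adjusted p = 0.0208 in limma) and than in Ctrl samples (0.21, adjusted p = 0.0141). Hsbp1, which binds HSF1 trimers, was lower in DNP vs Ctrl (-0.18, adjusted p = 0.0131). Of 3 genes tested in the list of heat shock factors, 0 were higher and 1 lower in DNP vs Ctrl and 1 was higher and 0 lower in each PF comparison. With the mean sum, none was called in PF vs DNP and 1 was lower in PF vs Ctrl. The call in PF vs DNP was also lost without DNP replicate 1 or 2 or PF replicate 1, that in PF vs Ctrl was lost without PF replicate 1, and without PF replicate 3 PF vs Ctrl had 1 higher and 1 lower. Genes known as HSF1 targets had 5 of 15 higher and 1 lower in DNP vs Ctrl, 6 higher and 4 lower in PF vs DNP and 9 higher and 0 lower in PF vs Ctrl. These are 40%, 66.7% and 60% of the list, of which the last is near the 57.7% of all genes. This list overlaps the others. Of its 5 genes higher in DNP vs Ctrl, Bag3 and Hspa4l were also counted among the HSP70 relatives and exchange factors. Dnaja4 was also counted among the J-domain and Fkbp4 among the HSP90 co-chaperones, so the counts of the lists are not independent. Scaled to the mean sum, the PF vs DNP split became 1 higher and 6 lower. Zfand2a, an arsenite- and heat-inducible partner of the proteasome, had the highest log2 fold change of the list in DNP vs Ctrl and the lowest in PF vs DNP. It was 46.1, 49.02 and 44.0 FPKM in Ctrl, 86.1, 86.8 and 89.4 FPKM in DNP and 50.0, 55.8 and 59.5 FPKM in PF samples. Zfand2a rose by 0.90 ± 0.0444 on the log2 scale in DNP vs Ctrl (SE, adjusted p = 7.81e-06 in limma) and fell by 0.66 in PF vs DNP (adjusted p = 2.96e-05). In the promoter windows of this list, 9 of 14 held a heat shock element of 2 units, beside 15.4% of all windows. The list was chosen as HSF1 targets, so this share is not independent of the choice. None was found in 13 windows of endoplasmic reticulum (ER) chaperones or in 4 of heat shock factors, few windows at a share of 15.4%.

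ER chaperones are mainly controlled by the unfolded protein response. Of 16 tested, 0 were called by limma in DNP vs Ctrl (3 at an unadjusted p under 0.05). In PF vs DNP 5 were higher and 0 lower, and in PF vs Ctrl 5 were higher and 0 lower. The list's 31.2% in both PF comparisons is below the 48.8% and 57.7% of all genes. The last 2 counts moved with the scaling, to 11 and 10 higher by median ratios and by the mean sum to 1 higher and 1 lower in PF vs DNP and 1 higher in PF vs Ctrl. The 5 calls in PF vs DNP became 3 without DNP replicate 2 and 2 without PF replicate 1, and those in PF vs Ctrl became 3 without PF replicate 1. In DNP vs Ctrl there were 2 calls without Ctrl replicate 1 and 1 without Ctrl replicate 3 or DNP replicate 2. Hspa5, the ER HSP70, was 674.8, 637.1 and 634.2 FPKM in Ctrl, 656.8, 635.4 and 667.1 FPKM in DNP and 810.9, 818.1 and 787.5 FPKM in PF samples. The PF samples of Hspa5 lay above all others, at a log2 fold change of 0.30 against DNP (adjusted p = 0.000101 in limma) and 0.31 against Ctrl (adjusted p = 0.000218). Hsp90b1, the ER HSP90, rose by 0.11 (adjusted p = 0.0119) and 0.16 (adjusted p = 0.00754) in the same comparisons. Genes listed by name as small heat shock proteins were mostly too low to test, with Hspb11, at 12.7 to 14.6 FPKM, the highest of the list. Whether each of them acts as a chaperone was not tested. Of 7 with a value 2 were tested with limma in DNP vs Ctrl with none called (0 at an unadjusted p under 0.05), and of 3 tested in each PF comparison 1 was called, Hspb9. It was 0.33 to 0.99 FPKM in Ctrl and DNP samples and 1.28 to 1.95 FPKM in PF samples, so that it reached the minimum for a test only through the PF group, and nothing is read from its call. In PF vs DNP, limma without the minimum called 0 genes of the list. Without any single PF sample Hspb9 no longer met the minimum, and without Ctrl replicate 2 a further gene of the list was called lower in PF vs Ctrl.

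**Figure D5:**
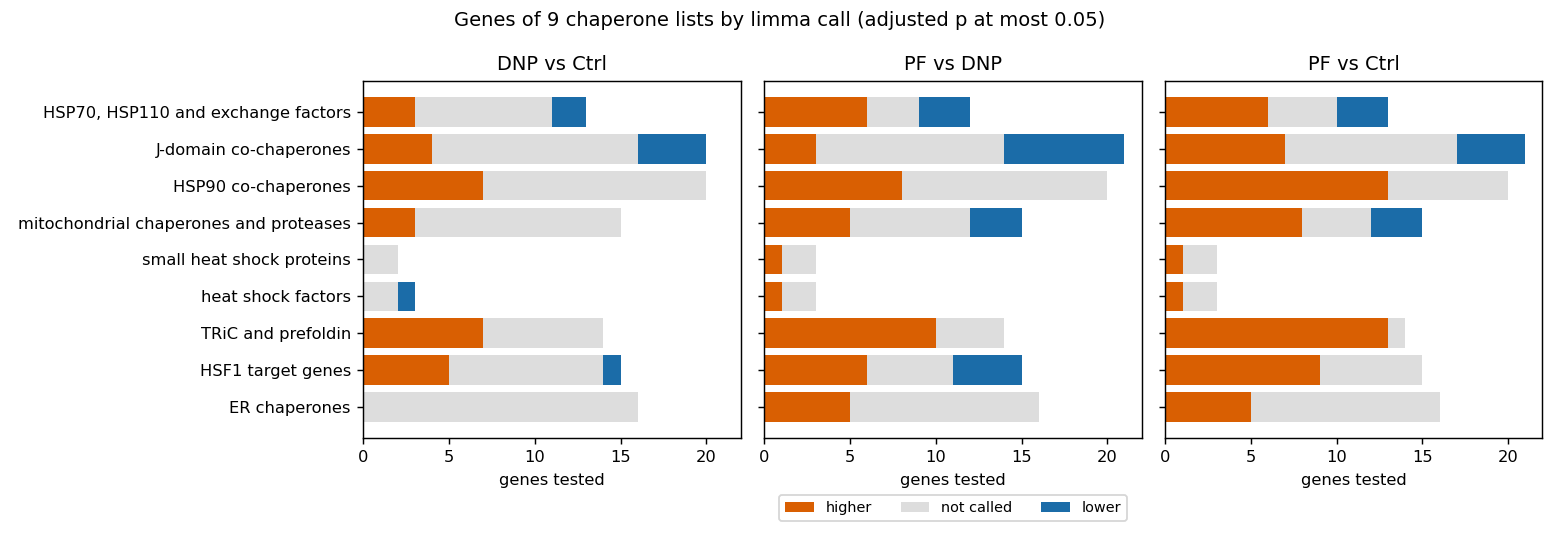
Number of genes tested in each of 9 chaperone lists (length of the bar), divided into those called higher (orange), not called (grey) and called lower (blue) by limma, for the 3 comparisons. HSP90 co-chaperones, TRiC with prefoldin, ER chaperones and small heat shock proteins have no gene called lower in any panel. Scaling to the mean sum left 2 HSP90 co-chaperones lower in each PF comparison. In PF vs DNP it also left 1 gene of TRiC and prefoldin and 1 ER chaperone lower.

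The patterns of Hsph1 and Hspd1 over the 9 samples were set beside those of 10504 genes by Pearson's r of log2(FPKM + 1), a description in which the samples share their groups. Mxd3 (0.95), Haus5 (0.92), Hells (0.92), Usp48 (0.92) and Anapc15 (0.91) were most like Hsph1. Of the members, Hsp90aa1 was nearest to Hsph1, at 0.83 and rank 105. For Hspd1 the nearest genes were C2cd5 (0.99), Ankrd46 (0.99), Nsun2 (0.99), Rhot1 (0.98) and Rpp30 (0.98). Its chamber partner Hspe1 had rank 3111, at 0.37, and Hspa8 ran the other way, at -0.88.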

How the data were processed

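RNA of 9 samples in 3 groups was analysed. The authors filtered the reads, mapped them with HISAT2 2.0.4, aligned them to genes with Bowtie2 2.2.5 and quantified them with RSEM 1.2.12 on rn6, by the study's methods and the submitters' processing notes. The labels name Illumina protocols, the methods a BGISEQ-500 sequencer. The deposited values, 1 per gene and sample, name no unit and are read as FPKM, since they have decimals and differ in sum. Of 38490 rows, 20484 have no value. Depth in reads is unknown, so that precision rests on the replicates, and steps of low values, which rest on 1 to 5 genes per sample, give only a rough relative depth of 0.984 to 1.022.

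Since no counts were given, limma 3.58.1 in R 4.3.3 (lmFit, eBayes with trend) was run on log2(FPKM + 1), keeping genes that reached 1 FPKM in 3 or more of a comparison's 6 samples, with Benjamini-Hochberg adjustment over all genes tested and a threshold of 0.05. The fold changes are of FPKM + 1 and understate those of low genes. Single ratios, which were not planned in advance, had a two-sided exact permutation test. The same test was planned for each member as a check, and its smallest p with 3 samples against 3 is 0.1. It could therefore pass no member at 0.05. The members and lists were chosen with earlier results of these data known. The genes named are the members, 10 fixed genes (Hsf1, Hsf2, Bag3, Hspa4, Hspa9, Dnaja1, Stip1, Trap1, Hspa5 and Hsp90b1), of each list up to 3 called genes with the highest and up to 3 with the lowest log2 fold change whose groups do not overlap, and the 5 genes most like Hsph1 and Hspd1. Alternatives were a pseudocount of 0.1, no filter, scaling by median ratios or to the mean sum, all 3 groups in 1 fit, the replicate number as a block, no trend, a threshold of 0.01, PF replicate 1 only, and each sample left out in turn. Promoters are RefSeq's, on GRCr8.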

Additional observations from a re-analysis of the deposited data

How the results depend on the processing

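Across the alternatives, the 7 members kept direction and side of the threshold in 80 of 98 values for DNP vs Ctrl, 97 of 105 for PF vs DNP and 90 of 105 for PF vs Ctrl. At an adjusted p of 0.01 in limma, DNP vs Ctrl called 1469 genes (817 higher, 652 lower) and 1 member, Hspd1. With each sample left out in turn it called 1 to 3 members, and 1 without Ctrl replicate 1 or any DNP replicate. The Hsp90aa1 log2 fold change in DNP vs Ctrl ranged from -0.0547 to 0.0855, negative without Ctrl replicate 3. In PF vs DNP the uncalled values turned sign with the scaling, Hspa8 to 0.0381 by median ratios, and Hsph1 to -0.0226 and Hspd1 to -0.0717 with the mean sum. The share of higher genes among those called was 37.1%, 51.5% and 16.8% in PF vs DNP as deposited, by median ratios and with the mean sum, and 40%, 51.1% and 26.7% in PF vs Ctrl, and the last scaling moved the median log2 fold change of all genes to -0.13 and -0.12. The members split into 3 higher and 1 lower, 4 and 1, and 2 and 2 in PF vs DNP, and 4 and 2, 5 and 1, and 3 and 2 in PF vs Ctrl. The cause of these shifts was not tested. Replicate numbers did not pair the samples, with correlations of same-numbered deviations between -0.073 and 0.182, and with the number as a replicate block 2697, 4675 and 6009 genes and 2, 4 and 6 members were called in DNP vs Ctrl, PF vs DNP and PF vs Ctrl. With PF replicate 1 only, which is assumed to vary like the other samples, 3633 genes and 3 members were called in PF vs DNP and 4022 genes and 4 members in PF vs Ctrl. FPKM holds no read counts, so that for Hspa1a, Hspa1b and Hspb1 no limit of detection can be given.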
